A study of Homo sapiens with 6 samples.

Results

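The AP-1 genes and their close bZIP relatives were examined here as a set of 9 genes out of 23459 in the count table. They were chosen by name: JUN, JUNB and JUND of the JUN subfamily, FOS, FOSL1 and FOSL2 of the FOS subfamily, and ATF3, JDP2 and BATF3. All 9 were present in the table, and 8 had enough counts to be tested. BATF3 did not pass the filter on low counts and is described by its counts only.

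The study concerned target genes that the transcriptional coactivators YAP and TAZ have in common with JUN, an AP-1 factor. Messenger RNA 3′ ends were sequenced from MCF10A, an untransformed human mammary epithelial cell line, after transfection with 20 nM of non-targeting siRNA (siCtrl, 3 libraries) or of siRNA against YAP and TAZ (siYAP/TAZ, 3 libraries). Both groups are labelled WT and grew in the same medium with horse serum, EGF, insulin, hydrocortisone and cholera toxin. All libraries came from 1 cell line and from whole cultures, in which fewer cells with a transcript and less transcript per cell cannot be told apart.

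AP-1 is a dimer of basic leucine zipper (bZIP) proteins. JUN proteins can pair with each other or with FOS proteins, whereas FOS proteins need a JUN partner to bind DNA, and the dimers recognise the TPA response element TGACTCA or the related cAMP response element TGACGTCA. JUN, JUNB, FOS and ATF3 are immediate-early genes induced within minutes to hours by growth factors and stress, FOSL1 and FOSL2 are more slowly induced FOS relatives, JDP2 and ATF3 act mainly as repressors, and BATF3 is best known from dendritic cells. In epithelial cells, AP-1 sites lie next to TEAD sites, through which YAP and TAZ reach DNA, in many enhancers.

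To show which of these elements the members' own promoters carry, RefSeq windows of 250 bases before to 50 bases after the start site were searched on both strands. The table (build GRCh38.p14) held windows for 7 of the 9 members, 10 windows in all, and none for FOSL1 or BATF3. Single elements were found in the promoters of JUN, ATF3, FOSL2, JUND and JDP2, and the 30 bases around each are printed 5′ to 3′ on the strand of the gene, with the matched letters in capitals.
JUN, chr1:58784096-58784125, minus strand: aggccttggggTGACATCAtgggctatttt
ATF3, chr1:212565273-212565302, plus strand: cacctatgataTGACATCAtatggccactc
FOSL2, chr2:28392851-28392880, plus strand: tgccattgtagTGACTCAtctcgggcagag
JUND, chr19:18281804-18281833, minus strand: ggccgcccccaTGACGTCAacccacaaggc
JDP2, chr14:75427946-75427975, plus strand: cggccggttccgCATTCCcgacccctcccc

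JUN and ATF3 shared the same 8 letters, TGACATCA, a variant element best known from the JUN promoter, with the first base at -67 in JUN and at -123 in ATF3. This element was present in 2.61% of the 35116 promoters in the table. FOSL2 held the canonical TGACTCA just after its start site (position 5; 4.95% of promoters) and JUND held TGACGTCA (position -200; 1.85% of promoters). JDP2 carried the TEAD letters GGAATG on the opposite strand (CATTCC, position -64), which 14.03% of promoters hold, and no window of the other members held GGAATG or CATTCC. These matches describe letters in short windows and say nothing about binding.

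The libraries held 3175149 to 4317286 counts, of which 742 to 1035 counts (0.0191% to 0.0270%) fell on the 9 members, and a count of 0 allowed up to 0.695 to 0.945 CPM (counts relative to a library size shared by all), for counting error only. CPM values are scaled by TMM factors and not by length, except that this floor and the marker sums below use total counts without TMM factors. In this kit a transcript yields reads from its 3′ end only, so levels of different genes are given on this per-transcript scale. The labels conflicted for 2 libraries: siCtrl replicate 2 and siYAP/TAZ replicate 2 carry a title and a genotype entry of the opposite group, and the description, which is also the column name, was followed. YAP1 remained at 57.5% and WWTR1, which encodes TAZ, at 61.8% of the siCtrl mean, both lower in each siYAP/TAZ library than in any siCtrl library, which goes with the descriptions (adjusted p of 0.0138 and 0.0311 by edgeR). With 1 library dropped at a time, the adjusted p by edgeR reached 0.112 for YAP1 and 0.176 for WWTR1. The YAP1 call was lost on dropping the third library of either group, or the second siYAP/TAZ library. The WWTR1 call held only on dropping the second siCtrl library (0.0110). Both fold changes stayed below 0 in these fits. By title, the adjusted p was 0.904 and 0.905. The siCtrl replicate 2 library stood apart from the other siCtrl libraries (Spearman's rho across genes of 0.946 and 0.959, against 0.981 between replicates 1 and 3), so values without it are given wherever a call rests on it. Its rho with siYAP/TAZ replicates 1, 2 and 3 was 0.958, 0.966 and 0.958. The highest was thus with siYAP/TAZ replicate 2, the other library with conflicting labels, and the reason was not tested. Of 10 mammary epithelial markers, all were detected, with summed levels of 1809 to 2156 CPM in siCtrl and 1525 to 1665 CPM in siYAP/TAZ. Summed leukocyte markers (5 genes, LYZ at 0) were at 5.90 to 11.5 and 4.05 to 8.50 CPM, endothelial markers (4 genes, VWF at 4 to 6 counts in every library) at 2.31 to 3.85 and 5.79 to 12.3 CPM, and stromal markers (5 genes, almost all PDGFRA, COL1A2 and COL3A1 at 0) at 161 to 166 and 161 to 175 CPM. Among the endothelial markers, PECAM1 had 6, 4 and 4 siCtrl counts against 14, 29 and 18 siYAP/TAZ counts. KDR had 2, 2 and 1 against 4, 5 and 11, and CDH5 had 0 to 2 counts in every library. The epithelial markers did not move as 1 set. KRT5, the largest of them, had 2877, 3097 and 3796 siCtrl counts against 2839, 2161 and 2295 siYAP/TAZ counts. TP63 counts went the other way, with 142, 141 and 250 against 271, 258 and 274. The counts of single markers are raw and not scaled for depth. In all, siYAP/TAZ replicate 1 (271 TP63 counts) held 4317286 counts and siCtrl replicate 3 (250) held 3888596, so the TP63 counts do not show groups without overlap. The epithelial and endothelial sums differed between the groups without overlap, and their part in the results for the members was not tested.

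Across the 8 tested members, none passed an adjusted p of 0.05 in edgeR's quasi-likelihood test, 2 had an unadjusted p under 0.05 (FOSL1 and JUNB), as had 17.7% of the 12510 genes tested, and DESeq2 called 1 (FOSL1). With the replicate number as a block, edgeR also called FOSL1 and no other member. Of all genes tested, 1.22% were called lower and 0.743% higher by edgeR, 5.44% and 4.66% with the block, and 2.57% and 1.96% by DESeq2. The members' median log2 fold change (siYAP/TAZ over siCtrl) was 0.15, with 4 below and 4 above 0, and the median over all genes tested was -0.00093. FOSL1 was the one member whose siYAP/TAZ libraries all lay below the siCtrl libraries, and JUNB the one whose siYAP/TAZ libraries all lay above them. Among all genes tested, 11.1% separated in the lower and 11.0% in the higher direction, so 1 of 8 in each direction was near the background.

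**Figure D1:**
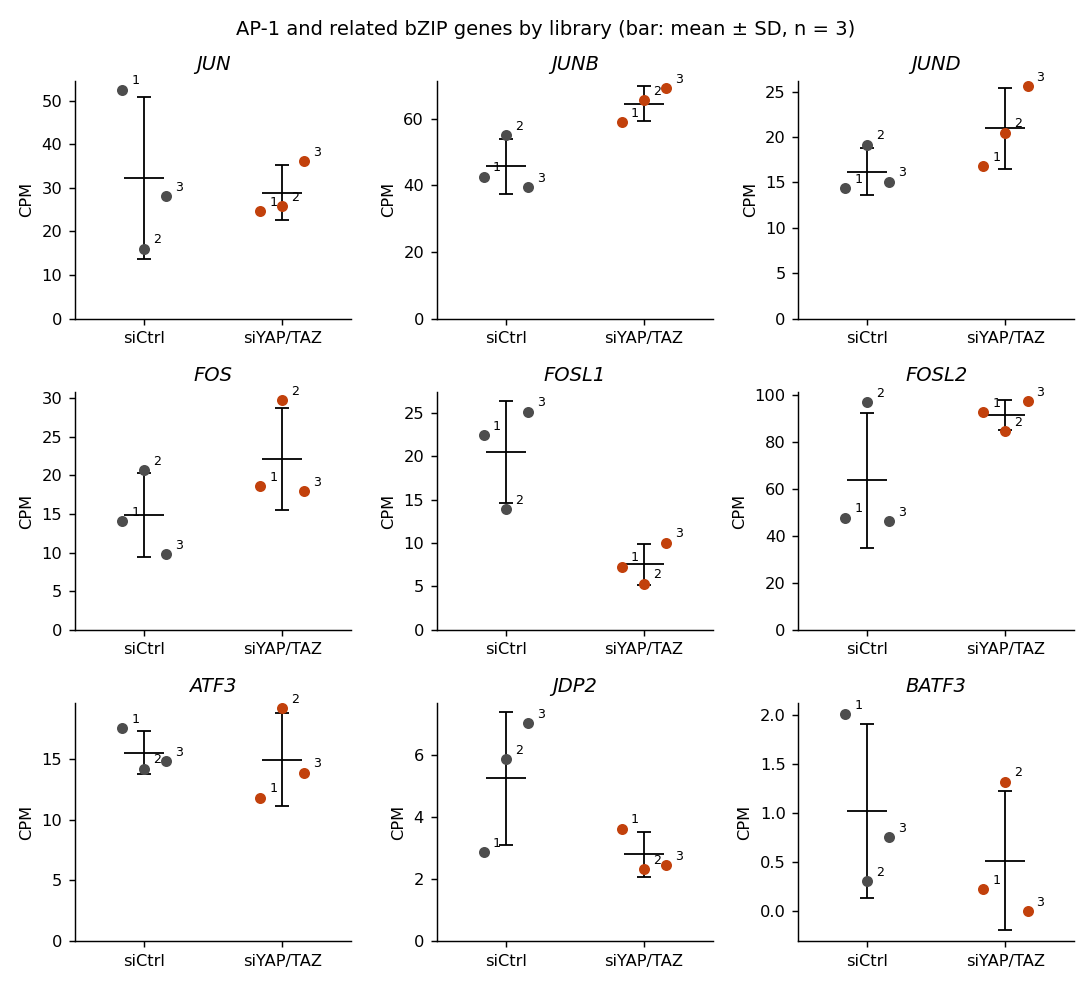
Level of each of the 9 members in CPM (y axes, linear, each panel on its own scale) in the 3 siCtrl (grey) and 3 siYAP/TAZ (orange) libraries, numbered by replicate, with the mean and SD as bars. FOSL1 (20.5 against 7.53 CPM) and JUNB (45.6 against 64.5 CPM) show groups that do not overlap, and JUN shows a siCtrl spread wider than the difference between groups.

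JUN (values in the order of replicates 1, 2 and 3, here and for the other genes), the founding AP-1 subunit (Entrez 3725; minus strand of chromosome 1, GRCh37 59242517 to 59249720), stood at 52.6, 16.05 and 28.1 CPM under siCtrl and at 24.7, 25.8 and 36.2 CPM under siYAP/TAZ. The siYAP/TAZ values all lay inside the siCtrl range, whose highest library was 3.28-fold above its lowest. Within replicate numbers, the log2 difference was -1.07, 0.67 and 0.36 for replicates 1, 2 and 3, so no common direction was seen. The log2 fold change was -0.16 (SE 0.37, 95% interval -0.98 to 0.66, adjusted p of 0.859 by edgeR), with an interval that reaches to both sides of 0. The sign depended on siCtrl replicate 1, without which it was 0.38 (adjusted p of 0.630), and the adjusted p ranged from 0.281 to 0.966 over the alternatives.

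JUNB, a JUN paralog with weaker transactivation (Entrez 3726; plus strand of chromosome 19, GRCh37 12902300 to 12904129), stood at 42.5, 54.9 and 39.5 CPM under siCtrl and at 58.9, 65.4 and 69.1 CPM under siYAP/TAZ. Every siYAP/TAZ library was above every siCtrl library, with means of 45.6 ± 8.20 and 64.5 ± 5.14 CPM (SD, n = 3). On the log2 scale, the fitted change was 0.50 (SE 0.16, 95% interval 0.13 to 0.87), and its adjusted p was 0.160 by edgeR, 0.0522 with the replicate block and 0.214 by DESeq2. Among the alternatives, JUNB passed in 2, without siCtrl replicate 2 (0.66, adjusted p of 0.0203) and without both libraries with conflicting labels (0.65, 0.0378). These settings called 6.08% and 4.65% of all genes tested higher, and the adjusted p of JUNB ranged up to 0.898 with the groups taken from the titles. The JUNB locus overlaps HOOK2 on the opposite strand. Whether strand was used in counting is not given in the sources used here, so reads of the pair may be shared. HOOK2 stood at 21.3, 40.1 and 26.4 CPM under siCtrl and at 39.4, 44.3 and 39.4 CPM under siYAP/TAZ (log2 fold change 0.49, SE 0.23, adjusted p of 0.299 by edgeR). Without siCtrl replicate 2, where JUNB passed, HOOK2 also passed (0.78, adjusted p of 0.0185 by edgeR). With the replicate block, the adjusted p of HOOK2 was 0.0895. The part of HOOK2 in the JUNB values was not tested.

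JUND, the JUN protein that is usually expressed in resting cells (Entrez 3727; minus strand of chromosome 19, GRCh37 18390504 to 18392432), stood at 14.4, 19.1 and 15.1 CPM under siCtrl and at 16.8, 20.5 and 25.6 CPM under siYAP/TAZ. The groups overlapped. Its log2 fold change was 0.37 (SE 0.23, 95% interval -0.15 to 0.89, adjusted p of 0.441 by edgeR), and it did not pass under any of the 15 alternatives.

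The JUN subfamily as a whole summed to 82.7 to 109 CPM in siCtrl and 100.4 to 131 CPM in siYAP/TAZ, ranges that overlap. Within that sum, JUN took a share of 48.0%, 17.8% and 34.04% under siCtrl and of 24.6%, 23.1% and 27.7% under siYAP/TAZ. The mean share of JUN was 33.3% ± 15.1 against 25.1% ± 2.33 (SD, n = 3), a difference of -8.18 percentage points (exact two-sided permutation p of 0.5). This difference rested on single siCtrl libraries, at -0.81 points without replicate 1 and -15.9 points without replicate 2. JUNB held the largest mean share in both groups, 49.2% ± 11.1 and 56.7% ± 3.37 (difference 7.52 points, exact permutation p of 0.4), and JUND held 17.5% and 18.2% (0.67 points, exact permutation p of 0.8). With 3 libraries against 3, no permutation test of these shares can go below 0.1, and 6 shares were compared in all, with a Benjamini-Hochberg adjusted p of 0.6 to 0.8.

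FOS, the prototype immediate-early gene of the FOS subfamily (Entrez 2353; plus strand of chromosome 14, GRCh37 75745529 to 75748933), stood at 14.1, 20.7 and 9.80 CPM under siCtrl and at 18.6, 29.7 and 17.95 CPM under siYAP/TAZ. Replicate 2 was the highest library of both groups, and the groups overlapped. The value was higher in siYAP/TAZ within all 3 replicate numbers, by 0.39, 0.51 and 0.84 on the log2 scale. In the fit, the log2 fold change was 0.57 (SE 0.31, 95% interval -0.13 to 1.27) with an adjusted p of 0.373 by edgeR and of 0.0994 with the replicate block (0.0764 to 0.961 over the alternatives).

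FOSL1, which encodes FRA-1, a FOS relative without the FOS transactivation domain (Entrez 8061; minus strand of chromosome 11, GRCh37 65659520 to 65668044), stood at 22.4, 13.9 and 25.1 CPM under siCtrl and at 7.25, 5.29 and 10.1 CPM under siYAP/TAZ. These values rest on 78, 45 and 100 counts and on 32, 16 and 37 counts. The highest siYAP/TAZ library lay below the lowest siCtrl library, and 36.8% of the siCtrl mean remained (20.5 ± 5.86 against 7.53 ± 2.40 CPM, SD, n = 3). FOSL1 was lower within all 3 replicate numbers, with differences of -1.56, -1.31 and -1.27 on the log2 scale.

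The fitted log2 fold change of FOSL1 was -1.43 (SE 0.31, 95% interval -2.14 to -0.73), the largest in size among the members, and its adjusted p of 0.0533 by edgeR lay just above the threshold. It passed in 6 of 15 alternatives: with the replicate block (-1.45, SE 0.23, adjusted p of 0.00335), in DESeq2 (0.00419), without the low-count filter (0.0127), with robust dispersion (0.0472), without siCtrl replicate 2 (-1.64, 0.00474) and without both libraries with conflicting labels (0.00942). In the same order, the share of all genes tested that these settings called lower was 5.44%, 2.57%, 1.56%, 1.39%, 6.22% and 4.64%. The adjusted p ranged from 0.00335 to 0.898 over the alternatives, the highest with the groups taken from the titles (-0.78). FOSL1 is on the list of siYAP/TAZ-lowered genes that the study drew from these same libraries, so that listing is not independent of the values given here.

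FOSL2, which encodes FRA-2 (Entrez 2355; plus strand of chromosome 2, GRCh37 28615315 to 28640184), stood at 47.7, 96.9 and 46.2 CPM under siCtrl and at 92.7, 84.6 and 97.4 CPM under siYAP/TAZ. siCtrl replicate 2 reached the siYAP/TAZ level, and the other siCtrl libraries lay below all siYAP/TAZ libraries. Its fitted log2 fold change was 0.53 (SE 0.26, 95% interval -0.06 to 1.12) with an adjusted p of 0.331 by edgeR over all libraries. FOSL2 passed without siCtrl replicate 2 (0.97, adjusted p of 0.00278) and without both conflicting libraries (1.02, 0.0040), beside 6.08% and 4.65% of all genes tested, and its adjusted p ranged up to 0.898, again by title. Within replicate numbers the log2 difference was 0.95, -0.19 and 1.07. The gene overlaps FOSL2-AS1 on the opposite strand and an unnamed annotated gene on the same strand, and how reads of the overlap were assigned is not given in the sources used here.

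**Figure D2:**
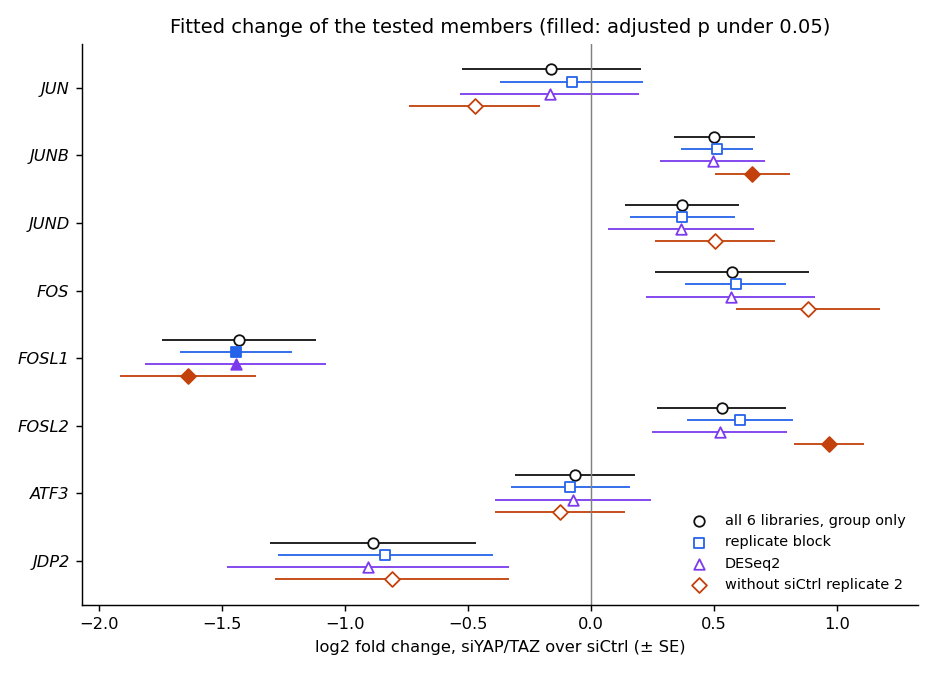
Fitted log2 fold change (x axis, siYAP/TAZ over siCtrl, bars ± SE) of the 8 tested members in 4 analyses: edgeR on all 6 libraries, edgeR with the replicate block, DESeq2, and edgeR without siCtrl replicate 2, with filled symbols for an adjusted p under 0.05. FOSL1 is filled in all but the first analysis, and JUNB and FOSL2 only without siCtrl replicate 2.

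The make-up of the FOS subfamily was compared as shares of counts within each library, which need no scaling between libraries. FOSL1 took 26.6%, 10.6% and 31.0% of the FOS, FOSL1 and FOSL2 counts in siCtrl (95% Wilson intervals 21.9% to 32.0%, 7.99% to 13.8% and 26.2% to 36.2%). In siYAP/TAZ it took 6.12%, 4.42% and 8.03% (4.37% to 8.51%, 2.74% to 7.06% and 5.88% to 10.9%). The groups did not overlap, although the intervals of siCtrl replicate 2 and siYAP/TAZ replicates 1 and 3 met, and intervals of this kind cover counting error only.

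The mean share of FOSL1 was 22.7% ± 10.7 against 6.19% ± 1.80 (SD, n = 3), a difference of -16.5 percentage points with an exact two-sided permutation p of 0.1, the smallest that 3 against 3 can give. FOSL2 took the larger part in every library, 56.7%, 73.7% and 57.0% in siCtrl and 78.2%, 70.7% and 77.7% in siYAP/TAZ (mean difference 13.1 points, exact permutation p of 0.2). FOS held 14.8% and 18.3% on average (exact permutation p of 0.6). The summed level of the subfamily was 81.2 to 131 CPM in siCtrl and 119 to 125 CPM in siYAP/TAZ.

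**Figure D3:**
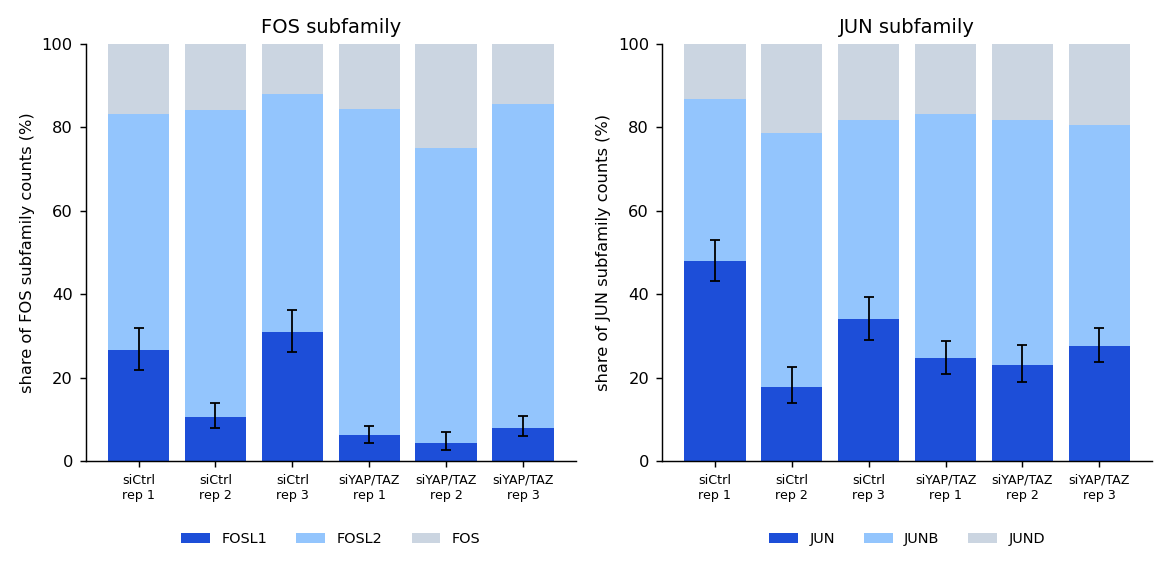
Share of the counts of the FOS subfamily (left) and of the JUN subfamily (right) held by each gene in each library (stacked bars, y axis in percent from 0), with 95% Wilson intervals on the share of FOSL1 and of JUN. FOSL1 held 10.6% to 31.0% in siCtrl and 4.42% to 8.03% in siYAP/TAZ, and the share of JUN overlapped between the groups.

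ATF3, a stress-induced repressor and AP-1 partner (Entrez 467; plus strand of chromosome 1, GRCh37 212738676 to 212794119), stood at 17.5, 14.2 and 14.8 CPM under siCtrl and at 11.8, 19.2 and 13.9 CPM under siYAP/TAZ. The siYAP/TAZ libraries lay on both sides of the siCtrl range. The log2 fold change was -0.07 (SE 0.24, 95% interval -0.62 to 0.48, adjusted p of 0.916 by edgeR), and the within-replicate differences were -0.55, 0.42 and -0.093.

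JDP2, the JUN dimerization protein that binds JUN and represses AP-1 sites (Entrez 122953; plus strand of chromosome 14, GRCh37 75894419 to 75940814), was near the lower end of what could be tested, with 10, 19 and 28 siCtrl counts against 16, 7 and 9 siYAP/TAZ counts. These were 2.87, 5.86 and 7.04 CPM and 3.63, 2.31 and 2.45 CPM, with the lowest siCtrl library inside the siYAP/TAZ range. On the log2 scale, the fitted change was -0.89 (SE 0.42, 95% interval -1.82 to 0.05, adjusted p of 0.307 by edgeR and 0.500 by DESeq2), and the within-replicate differences were 0.29, -1.16 and -1.34. BATF3 (Entrez 55509; minus strand of chromosome 1, GRCh37 212859759 to 212873182) had 7, 1 and 3 siCtrl counts against 1, 4 and 0 siYAP/TAZ counts, so a change was not detectable at this depth. ATF3, JDP2 and BATF3 overlap RN7SL512P, JDP2-AS1 and RNU6-423P on the opposite strand, and these were not analysed here.

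In siCtrl the order of the mean levels on the per-transcript CPM scale was FOSL2, JUNB, JUN, FOSL1, JUND, ATF3, FOS, JDP2 and BATF3. Each gene from FOSL2 down to ATF3 overlapped the next in its range over libraries, so that part of the order is not resolved, and only the steps from FOS to JDP2 and from JDP2 to BATF3 were clear of overlap. In siYAP/TAZ the order was FOSL2, JUNB, JUN, FOS, JUND, ATF3, FOSL1, JDP2 and BATF3. Here FOSL2 was above JUNB and JUNB above JUN in all 3 libraries with no overlap, JUN, FOS, JUND and ATF3 overlapped their neighbours, and FOSL1 stood in the seventh place in all 3 libraries, below ATF3 and above JDP2 without overlap.

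FOSL1 was lower within all 3 replicate numbers, as were 22.8% of all genes tested, and JUNB, JUND and FOS were higher within all 3, as were 23.3% of all genes tested. With single libraries left out, the direction of JUNB, JUND, FOS, FOSL1, FOSL2 and JDP2 held in all 6 fits, whereas JUN had the opposite sign in 1 fit and ATF3 in 2. The log2 fold change of FOSL1 stayed between -1.69 and -1.25 in these fits, and its adjusted p between 0.00474 and 0.237.

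**Figure D4:**
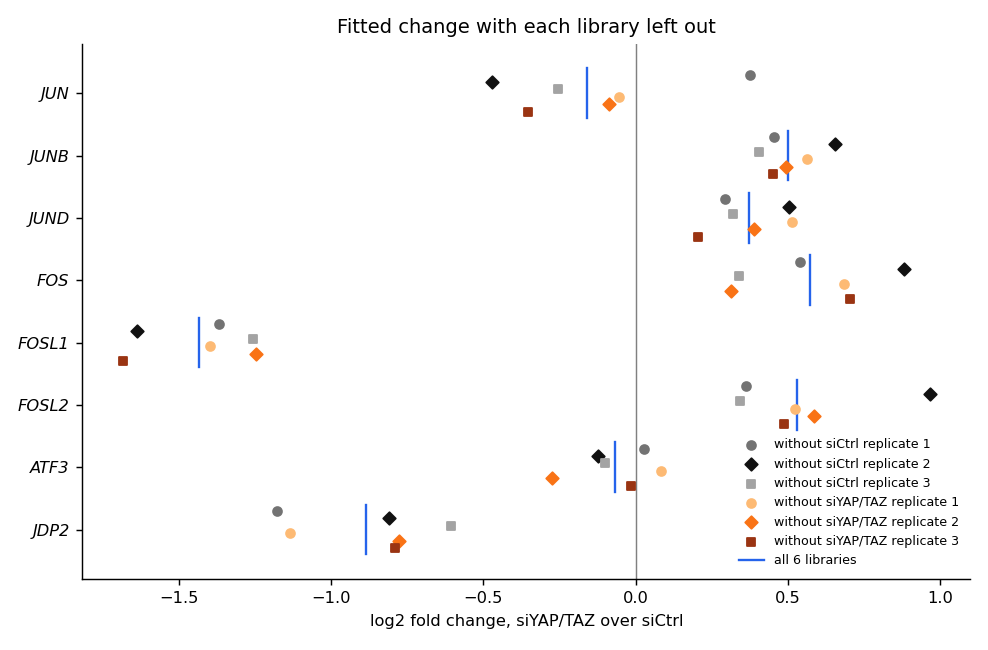
Fitted log2 fold change of each tested member (x axis, siYAP/TAZ over siCtrl) with each of the 6 libraries left out in turn (symbols) and with all libraries (blue line). FOSL1 stays between -1.69 and -1.25, and FOSL2 spreads from 0.34 to 0.97, with the highest value without siCtrl replicate 2.

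Genes with levels most like those of FOSL1 and JUN were looked up next. Over 9787 genes with a mean of at least 10 CPM, the log2 levels most like those of FOSL1 across the 6 libraries were ETV5 (Pearson's r of 0.994), RBMS1 (0.989), TPM4 (0.988), HMGA1 (0.987) and MICA (0.987). ETV5, an ETS factor that follows ERK signaling, stood at 35.3, 25.0 and 36.4 CPM under siCtrl and at 19.7, 15.9 and 22.03 CPM under siYAP/TAZ, so both groups had their lowest library at replicate 2, as for FOSL1. The genes most like JUN were RRP8 (0.995), HOMER3 (0.991), PMPCA (0.982), RBM8A (0.970) and RIOX2 (0.969), and these had siCtrl replicate 2 as the lowest library and fitted log2 fold changes from -0.092 to -0.0074. These r values describe 6 libraries that include the contrast itself, were picked as the highest of 9787, and carry no test.

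The genes around AP-1 were then counted in 6 lists. Of 17 further bZIP partners, 12 were tested, with a median log2 fold change of -0.079 and 8 below 0. In edgeR 1 fell, beside 1.22% of all genes tested. It was the same 1 that had an unadjusted p under 0.05 (17.7% of all genes tested): CREB5. This ATF2 relative (Entrez 9586), which can pair with JUN, stood at 59.2, 37.3 and 58.8 CPM under siCtrl and at 17.0, 18.5 and 19.6 CPM under siYAP/TAZ. All siYAP/TAZ libraries were below all siCtrl libraries (51.8 ± 12.5 against 18.4 ± 1.298 CPM, SD, n = 3). The fall of CREB5 passed the test (-1.50 on the log2 scale, SE 0.21; edgeR, adjusted p of 0.0116), and the call was lost when siCtrl replicate 3 (0.0815) or replicate 2 or 3 of siYAP/TAZ (0.0505 and 0.0836) was left out.

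Among the other genes of that list with the smallest p were ATF7, another ATF2 relative (0.36, adjusted p of 0.358 by edgeR), and NRL (-0.48, 0.518), given as log2 fold change and adjusted p. FOSB, the remaining FOS subfamily gene, had 4, 0 and 2 siCtrl counts against 2, 2 and 3 siYAP/TAZ counts and was not tested, and no library held more than 3 counts of BATF or BATF2.

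All 18 kinases and factors upstream of AP-1, from the ERK, JNK and p38 kinases to the ternary complex factors and SRF, were tested. Their median log2 fold change was -0.019, with 9 below and 9 above 0, and 0 passed in edgeR, in DESeq2 or at an unadjusted p under 0.05, which 17.7% of all genes tested had. The smallest p belonged to MAP2K1, an ERK kinase (-0.36, adjusted p of 0.382 by edgeR), and to the JNK gene MAPK8 (0.24, 0.386), MAP3K1 (0.28, 0.404) and the JNK gene MAPK10 (0.27, 0.516).

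Of 10 genes for AP-1 turnover, all were tested, with a median log2 fold change of -0.087. In edgeR 1 rose, beside 0.743% of all genes tested. It was the same 1 that had an unadjusted p under 0.05 (17.7% of all genes tested): SQSTM1. This gene (Entrez 8878) encodes the autophagy receptor p62, which is known mainly for selective autophagy and NRF2 control rather than for the ubiquitin ligases that make up most of the list. It stood at 192, 236 and 128 CPM under siCtrl and at 454, 364 and 458 CPM under siYAP/TAZ. On the log2 scale it rose by 1.20 (SE 0.22; edgeR, adjusted p of 0.0288). The groups did not overlap. The call held without siCtrl replicate 2 and was lost without any other single library, with adjusted p-values from 0.0606 to 0.152.

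The JUN ubiquitin ligase genes FBXW7 (-0.16, adjusted p of 0.560 by edgeR), COP1 (0.15, adjusted p of 0.599) and DET1 (-0.36, adjusted p of 0.600) did not pass. All 6 genes of the NCOR corepressor complex were tested, with a median log2 fold change of 0.077, and 0 passed in edgeR, in DESeq2 or at an unadjusted p under 0.05 (17.7% of all genes tested). HDAC3 (-0.17), TBL1X (0.44), GPS2 (0.24) and TBL1XR1 (-0.11) had the smallest p, with adjusted p-values from 0.544 to 0.682 by edgeR.

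Textbook AP-1 target genes numbered 30, of which 20 were tested, with a median log2 fold change of -0.18, 11 below and 9 above 0. At an unadjusted p under 0.05 there were 7 lower and 2 higher, beside 17.7% of all genes tested in either direction. In edgeR 1 fell, beside 1.22% of all genes tested. IL1A, an inflammatory cytokine gene (Entrez 3552), fell from 143, 119 and 108 CPM in siCtrl to 44.4, 77.0 and 44.6 CPM in siYAP/TAZ (-1.17, SE 0.22, adjusted p of 0.0344 by edgeR), and its groups did not overlap. The call on IL1A was lost when replicate 1 or 3 of siCtrl (0.103 and 0.119) or replicate 1 or 3 of siYAP/TAZ (0.0895 and 0.188) was left out. PLAUR, the urokinase receptor gene, had 40.8, 22.2 and 30.9 against 14.3, 13.9 and 15.5 CPM, with groups that did not overlap (-1.10, SE 0.24, adjusted p of 0.0535 by edgeR).

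With the replicate block, 8 targets fell and 2 rose, beside 5.44% and 4.66% of all genes tested. DESeq2 called 3 lower and 0 higher, beside 2.57% and 1.96%. PLAUR (0.00964), IL1B (-1.50, 0.0161) and CXCL8 (-1.33, 0.0357) were among the 8, given as adjusted p by edgeR with the block. IL1A, the cyclin gene CCND1, the integrin gene ITGA2 and IER3 were also among them. The 2 that rose with the block, named after their values were seen, were DUSP1, a MAPK phosphatase gene (adjusted p of 0.0390 by edgeR with the block), and LOX, a collagen crosslinking enzyme gene (0.0457). Among the 10 untested targets, the matrix metalloproteinase genes MMP1, MMP3, MMP9, MMP10 and MMP13 did not exceed 4 counts in any library, and CCL2 was at 0 counts in all.

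Of 15 immediate-early genes other than AP-1, 12 were tested, with a median log2 fold change of -0.28 and 10 below 0. In edgeR 2 fell, beside 1.22% of all genes tested. At an unadjusted p under 0.05 there were 6 lower and 0 higher, beside 17.7% of all genes tested in either direction. CCN1, a matricellular gene that is also a well-known YAP target, fell by 2.41 on the log2 scale (SE 0.35; edgeR, adjusted p of 0.0138). PHLDA1 (Entrez 22822) stood at 146, 87.0 and 125 CPM under siCtrl and at 49.2, 45.9 and 55.8 CPM under siYAP/TAZ (-1.25, SE 0.20, adjusted p of 0.0168 by edgeR). Neither gene's groups overlapped, and both calls were lost without siCtrl replicate 3 (0.0803 and 0.101) or siYAP/TAZ replicate 3 (0.0705 and 0.104), and that of PHLDA1 also without siYAP/TAZ replicate 2 (0.0752). With the groups of the titles, none of CREB5, SQSTM1, IL1A, CCN1 and PHLDA1 passed (adjusted p of 0.898 by edgeR). DUSP5, an ERK phosphatase gene, and MCL1 passed with the block (adjusted p of 0.0294 and 0.00980 by edgeR) and not without it, where the log2 fold changes were -1.23 and -0.54.

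**Figure D5:**
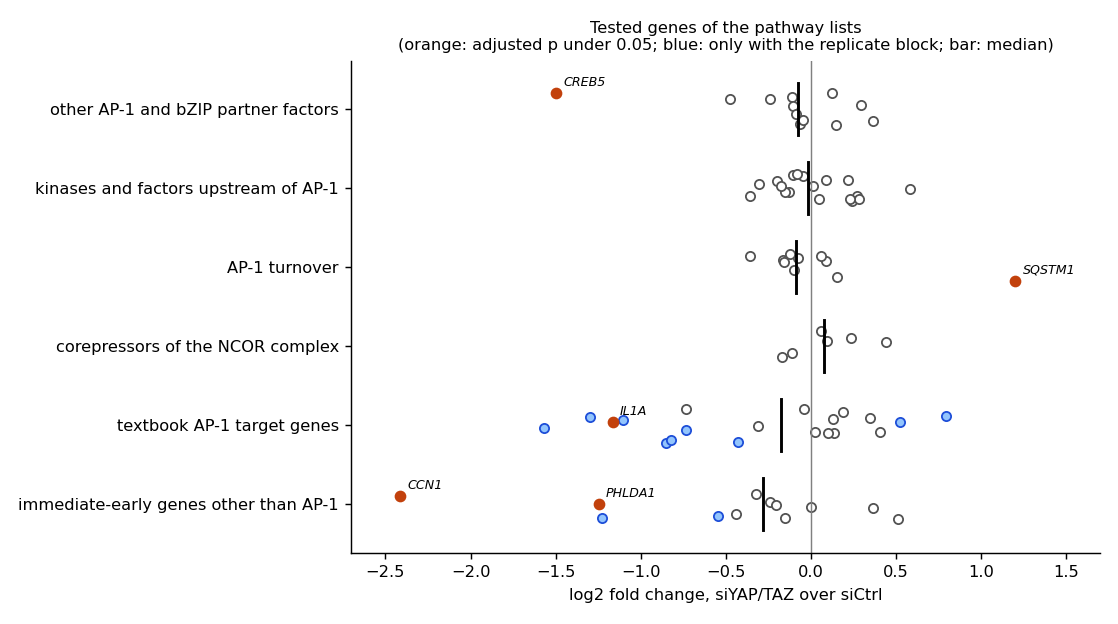
Log2 fold change (x axis, siYAP/TAZ over siCtrl) of every tested gene in the 6 lists around AP-1 (rows; vertical scatter is for legibility), with the list median as a bar, orange for an adjusted p under 0.05 in edgeR and blue for genes that pass only with the replicate block. CREB5, IL1A, CCN1 and PHLDA1 lie to the left at -1.17 or below and SQSTM1 to the right at 1.20, while the medians of the upstream kinases and the NCOR complex lie at -0.019 and 0.077.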

How the data were processed

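The authors deposited 1 table of raw counts per Entrez gene, with no scaling. Per the submitters' processing notes, reads were trimmed with cutadapt 4.2 and aligned to hg19 with Bowtie2 2.3.5.1. The study's methods name overlap counting in R for RNA-Seq in general. The annotation and strand setting are not given in the sources used here. The study's methods state biological replicates for RNA-Seq in general, but the labels do not say that libraries came from separate cultures, so p-values measure only the spread between these libraries.

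Groups and replicate numbers came from the description of each library, which matches the column names. Counts were tested with edgeR 4.0.16 (R 4.3.3; quasi-likelihood F test with group alone in the model, TMM factors, genes kept by filterByExpr, Benjamini-Hochberg adjustment over 12510 genes, threshold 0.05) and, as alternatives, with DESeq2 1.42.0, other scalings, filters and groupings, and single libraries left out. Each SE is the log2 fold change divided by the square root of its F statistic. The same code was tested on simulated data. For the block, libraries of 1 replicate number were treated as pairs. Their deviations from the group means correlated across genes, with r of 0.416, 0.345 and 0.129 for replicates 1, 2 and 3, each over 0.1. Correlations between different numbers were not compared with these, so the check cannot show that the libraries were paired, and results with the block rest on that assumption.

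Shares were compared with exact permutation tests over libraries. Symbols of 23308 IDs came from RefSeq gene tables. Gene coordinates are from GENCODE 44 lifted to GRCh37, and promoter sequences are from RefSeq. Named genes were the 9 members, the targeted YAP1 and WWTR1, the 4 tested genes with the smallest p in each list, the 5 genes most like FOSL1 and JUN, and overlapping genes; some list genes are not reported here. The members and lists were chosen with earlier results of these data known.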

Additional observations from a re-analysis of the deposited data

How the results depend on the processing

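Over all genes, edgeR called 152 lower and 93 higher. The counts were 333 and 254 with DESeq2, 299 and 257 without the low-count filter, 680 and 583 with the replicate block, 0 and 0 with the groups of the titles (where 0 members passed), 591 and 592 without both libraries with conflicting labels, and 10 to 798 and 6 to 781 with 1 library left out. For the members (0 lower and 0 higher), 1 was lower with DESeq2, without the low-count filter, with robust dispersion, with the replicate block and without both conflicting libraries, where 2 were higher. With 1 library left out, 0 to 1 were lower and 0 to 2 higher. For the 6 lists (4 lower, 1 higher), 7 were lower without the filter, 13 lower and 3 higher with the replicate block, 0 and 0 by title, 9 and 2 without both conflicting libraries, and 0 to 10 and 0 to 2 with 1 library left out. JUN reversed to 0.38 without siCtrl replicate 1, and ATF3 to 0.028 without that library and to 0.084 without the first siYAP/TAZ library. The cause was not tested. With 1 library left out, JUN ranged from -0.47 to 0.38 and ATF3 from -0.27 to 0.084. The share difference of FOSL1 stayed between -22.6 and -12.4 points and that of JUN between -15.9 and -0.81 points with 1 library left out, and in both the direction held under every alternative run. With the replicate block as sign flips, the p for the FOSL1 share was 0.25, the smallest 3 pairs allow. Scaling by RLE or library size alone, or a mean of at least 50 counts, changed no member's call, and JDP2 has no value under that last filter. BATF3 had too few counts to be tested. JDP2 also had few counts, and depth and the spread between libraries were not separated for it.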
